A study of Mus musculus with 24 samples.

Results

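Chromatin accessibility late after induction of the long noncoding RNA Firre was compared with accessibility before or shortly after it, in wild type mouse embryonic stem cells that carry a doxycycline-inducible Firre transgene. The members are the 5 ATAC-seq libraries of this line with counts, out of 23 libraries of 4 lines: 2 early libraries, taken at 0 and 30 min after doxycycline, and 3 late ones, taken at 90, 120 and 150 min. The library of 60 min was not analysed here. They were chosen by line and time alone, with no measured value. ATAC-seq marks open DNA by letting a transposase insert sequencing adapters into it, and the unit is the number of reads in each of 145143 peaks. The other lines were a wild type control with no transgene, a Firre knockout (KO) that carries the same kind of transgene, and a Firre KO control. All cells, controls included, received doxycycline and were grown on gelatin with serum, LIF, the MEK inhibitor PD0325901 and the GSK3 inhibitor CHIR99021. No source used here gives the promoter and transactivator that drive the transgene or the number of clones behind each line. The libraries of a window are different times of 1 line, with no separate cultures stated. The p-values therefore reflect only the scatter among times within a window, estimated over all 4 lines together, which may be technical. The line cannot be told apart from its clone.

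Firre is made from the X chromosome, stays in the nucleus and holds many copies of a repeat that binds the nuclear matrix protein hnRNP U. It is known for contacts between its own locus and loci on other chromosomes, and for its part in anchoring the inactive X chromosome. In an inducible system, doxycycline lets a transactivator switch on the transgene, so that the time after the drug orders early and later responses, while the drug itself also acts on mitochondrial translation.

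The 5 libraries held 7456342, 7452880, 14977148, 7520754 and 8314720 counts in peaks at 0, 30, 90, 120 and 150 min. The library of 90 min was the deepest, and a count of 0 leaves room for up to 0.199 (90 min) to 0.399 CPM, which are counts relative to each library's TMM-scaled total. This floor takes 3 counts and covers counting error only. The library of 150 min stood apart in composition: peaks annotated as promoters took 38.1% of its counts, against 33.8%, 33.2%, 33.7% and 35.0% at 0, 30, 90 and 120 min. The share was 33.5% ± 0.453 early (SD, n = 2) and 35.6% ± 2.25 late (SD, n = 3). The difference of 2.12 points had p = 0.4 in an exact two-sided permutation test, whose smallest possible p with 10 arrangements is 0.2, and it was 0.875 points without the library of 150 min. Promoters of 18 of 20 naive pluripotency genes had a tested peak, but open promoters were also found for 9 of 12 fibroblast genes, so accessibility at promoters does not by itself separate these cell types. The summed CPM at the fibroblast promoters was 157.6 and 156.4 early and 162.0, 156.2 and 175.4 late.

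**Figure D1:**
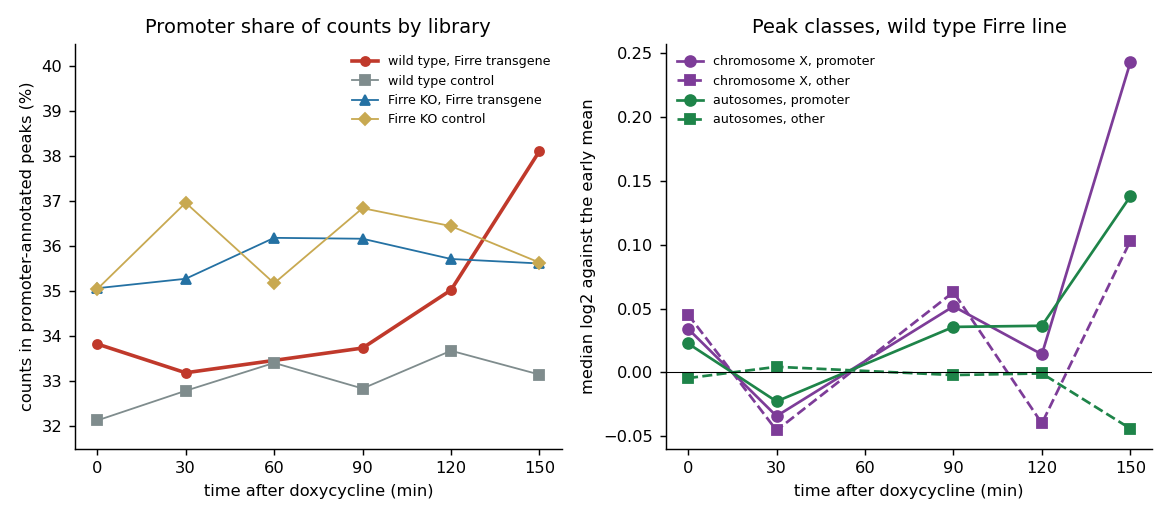
Left, share of each library's counts in peaks annotated as promoters (%, the axis does not start at 0) against time after doxycycline (min), 1 point per library and 1 line per cell line. Right, median log2 difference of each library of the wild type Firre line from the mean of its early libraries, for promoter and other peaks on chromosome X and on the autosomes; the 150 min library of this line is the highest in both panels for all promoter series.

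Of 129515 tested peaks, 1 changed between the late and the early libraries, or 0.000772% (edgeR quasi-likelihood test, adjusted p of 0.05 or less). It lies in intron 1 of 5 of Rapgef4, which encodes EPAC2, an exchange factor that activates Rap GTPases in response to cAMP. Accessibility there was 2.56-fold higher late, while no promoter peak and no peak annotated to Firre passed the test. At an unadjusted p under 0.05 stood 7013 peaks, 5.41% of those tested, with 2.84% higher and 2.57% lower late; with DESeq2 the share was 1.95%. In 10.7% of the peaks every late library was above both early ones, and in 10.8% every late library was below both. The median standard error of a log2 difference was 0.247, with the spread estimated over all 23 libraries. It sets the size that this comparison can resolve.

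The Rapgef4 peak (mm10, chr2:71983023-71984048) had 3.72 CPM at 0 min and 7.31 at 30 min, then 13.7, 13.0 and 16.02 CPM at 90, 120 and 150 min. All 3 late libraries were above both early ones, and the library of 30 min lay between that of 0 min and the late ones. The early mean was 5.52 ± 2.54 CPM (SD, n = 2) and the late mean 14.25 ± 1.57 CPM (SD, n = 3). The log2 difference was 1.35 ± 0.20 (SE), with an edgeR adjusted p of 0.000151. The call rests on the library of 0 min: without it the log2 difference was 0.95 ± 0.23 and the edgeR adjusted p 0.968. DESeq2 gave 1.37 ± 0.29 with an adjusted p of 0.288. With the promoter share as a covariate the difference was 1.27 ± 0.22, at an edgeR adjusted p of 0.0383. In the KO line with the transgene the same peak had 5.32 and 11.8 CPM at 0 and 30 min and 16.4, 14.1 and 19.2 CPM late, again with no overlap, and a log2 difference of 0.94 ± 0.18 that was not called there (edgeR adjusted p 0.181). In the wild type control it stayed between 2.96 and 4.59 CPM at all 6 times, and its windows overlapped there (0.07 ± 0.31). In the KO control it had 2.97 and 3.70 CPM early and 4.05, 4.22 and 4.85 CPM late, so the late libraries were above the early ones there too, with a difference of 0.42 ± 0.30 that was not called. The wild type Firre line exceeded the wild type control in its late minus early difference by 1.28 ± 0.38 on the log2 scale, which did not pass the test over all peaks.

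Within 100 kb of the Rapgef4 peak, 15 other peaks were tested, 0 were called and their log2 differences ran from -0.40 to 0.61 with a median of -0.01. At an unadjusted edgeR p under 0.05 stood 3 of the 15, against 5.41% of all tested peaks, and 6 of the 15 were positive. The peak at the Rapgef4 promoter, upstream of the intronic one, had 5.84 and 3.40 CPM early and 5.62, 9.05 and 5.94 CPM late. Its windows overlapped, and its difference was 0.52 ± 0.24 (edgeR adjusted p 0.918). At the same promoter peak the KO line with the transgene had 0.59 ± 0.28. The KO control, without the transgene, had 0.74 ± 0.30 and the wild type control -0.04 ± 0.28. A pair of peaks nearest to Gm13746 further upstream had differences of 0.61 ± 0.19 and 0.61 ± 0.28, at edgeR adjusted p of 0.896 and 0.914. In the KO line with the transgene the pair stood at 0.01 and -0.22. Between the pair lay peaks, also nearest to Gm13746, with differences of -0.15 ± 0.36 and -0.25 ± 0.28 in the wild type Firre line.

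Introns of Pde6d, a chaperone of prenylated proteins, and Apod, the lipid carrier apolipoprotein D, are described because they stood out in an earlier analysis of these data. The Pde6d peak (chr1:86549363-86551159, intron 1 of 3) had 8.77 and 14.1 CPM early and 17.3, 15.7 and 17.7 CPM late. The Apod peak (chr16:31299422-31301637, intron 1 of 2) had 18.5 and 22.1 CPM early and 30.0, 24.5 and 30.4 CPM late. In both peaks the late libraries were above both early ones and the lowest library was that of 0 min. The log2 differences were 0.57 ± 0.16 and 0.49 ± 0.14, neither of which passed the test (edgeR adjusted p 0.896 for each). The KO line with the transgene had differences of 0.53 ± 0.15 and 0.42 ± 0.14 at the same peaks, and the wild type control -0.27 ± 0.19 and -0.27 ± 0.16. Set against the wild type control, the late minus early difference was higher by 0.83 ± 0.25 at Pde6d and by 0.76 ± 0.21 at Apod; against the KO line with the transgene it differed by 0.03 ± 0.22 and 0.07 ± 0.20. Of the peaks within 100 kb, 0 of 32 around Pde6d and 0 of 13 around Apod were called, with medians of 0.04 and -0.02. Their differences ran from -0.49 to 0.32 around Pde6d and from -1.22 to 0.78 around Apod. At an unadjusted edgeR p under 0.05 stood 0 of the 32 and 3 of the 13, against 5.41% of all tested peaks.

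**Figure D2:**
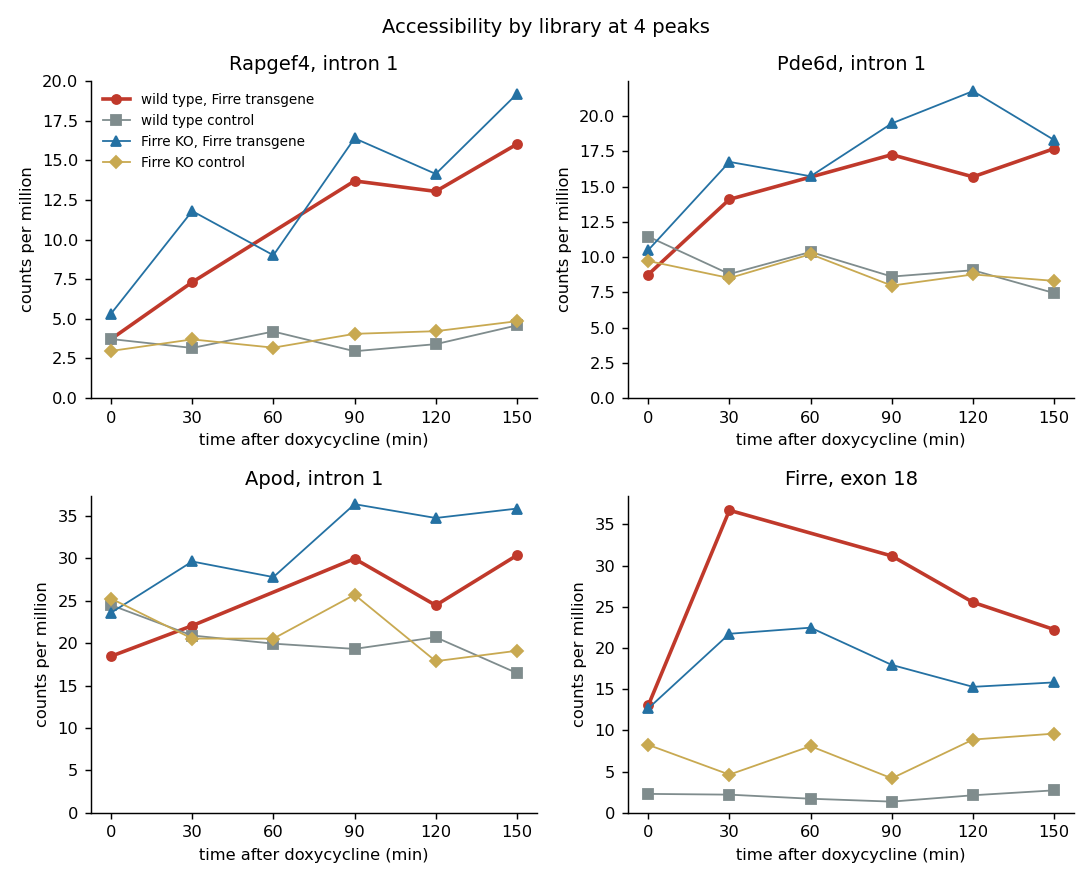
CPM (vertical axis, from 0) against time after doxycycline (min) at the intronic peaks of Rapgef4, Pde6d and Apod and at exon 18 of Firre, 1 point per library and 1 line per cell line; the wild type Firre line has no point at 60 min. At Rapgef4 the 3 late libraries of that line sit between 13.0 and 16.02 CPM, while exon 18 of Firre is highest at 30 min with 36.7 CPM.

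The induced gene itself was read beside the labels. At exon 18 of 20 of Firre (chrX:50569280-50570236) the wild type Firre line had 13.0 CPM at 0 min and 36.7 at 30 min, then 31.2, 25.5 and 22.2 CPM at 90, 120 and 150 min. The wild type control had 1.36 to 2.72 CPM there, so every library of the transgenic line was higher, that of 0 min included. The highest library of the time course was an early one, and the late minus early difference was 0.11 ± 0.33 (edgeR adjusted p 0.993). It was -0.44 without the library of 0 min and 1.05 without that of 30 min. The KO line with the transgene had 12.7 and 21.7 CPM early and 17.9, 15.3 and 15.8 CPM late, and the KO control 4.18 to 9.60 CPM over its times. Every library of the KO control was thus below the transgenic lines but above the wild type control. The reason for the latter was not tested.

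The peak at the annotated Firre promoter (chrX:50634917-50635918) had 13.0 and 13.7 CPM early and 14.2, 14.8 and 16.2 CPM late. Each late library was above both early ones, but the difference of 0.15 ± 0.14 did not pass the test (edgeR adjusted p 0.969). The wild type control had 8.74 to 10.89 CPM there, below every library of the wild type Firre line, that of 0 min included. The KO line with the transgene had 1.74 to 3.30 CPM and the KO control 0.253 to 1.98 CPM. Of the 19 peaks annotated to Firre 0 were called, and 11 had a positive difference. The extremes were a peak in an intron (chrX:50611777-50612817) at 0.70 ± 0.21 and another (chrX:50620001-50621065) at -0.47 ± 0.19. The first of these was at 5.45 and 5.49 CPM early, 7.48 and 7.45 CPM at 90 and 120 min and 12.7 CPM at 150 min. Summed over the 18 peaks other than exon 18, the locus held 97.6 ± 7.87 CPM early (SD, n = 2) and 102.9 ± 12.6 CPM late (SD, n = 3), which overlapped (exact two-sided permutation p = 0.8).

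The promoter peaks with the smallest p late above early belonged to Ube2uos, a noncoding gene opposite Ube2u, Mpp5, a scaffold of epithelial polarity, Msh3, a DNA mismatch repair protein, Stpg2, Dennd4a, an exchange factor for Rab GTPases, and Nr3c2, the mineralocorticoid receptor. The smallest edgeR adjusted p among them was 0.0899, so none was called. The promoter windows of the Rapgef4 gene, which holds the called peak, of Firre, and of the higher and lower promoter genes below are shown to give the letters behind the values; nothing was tested on them. They are the 300 bases from 250 before to 50 after the RefSeq gene start (GRCm38.p6, the assembly of mm10), and 10 of the 14 genes looked for had a window over the peak described, of which 6, chosen after their values were seen, are printed. Capitals mark the matches, on either strand, of 8 motifs: the cAMP response element TGACGTCA, the site of AP-1 written TGANTCA, the Sp1 box spelled GGGCGG, the box named by its letters CCAAT, the site of ETS factors spelled CCGGAAG, the E box spelled CACGTG, the octamer spelled ATGCAAAT and the Esrrb element spelled CAAGGTCA.
Rapgef4: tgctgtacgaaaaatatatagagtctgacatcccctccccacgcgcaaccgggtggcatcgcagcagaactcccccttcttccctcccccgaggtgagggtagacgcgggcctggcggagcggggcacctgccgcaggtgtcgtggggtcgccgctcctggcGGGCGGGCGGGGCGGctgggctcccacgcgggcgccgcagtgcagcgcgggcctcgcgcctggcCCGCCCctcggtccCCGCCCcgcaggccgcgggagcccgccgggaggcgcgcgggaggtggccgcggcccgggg
Firre: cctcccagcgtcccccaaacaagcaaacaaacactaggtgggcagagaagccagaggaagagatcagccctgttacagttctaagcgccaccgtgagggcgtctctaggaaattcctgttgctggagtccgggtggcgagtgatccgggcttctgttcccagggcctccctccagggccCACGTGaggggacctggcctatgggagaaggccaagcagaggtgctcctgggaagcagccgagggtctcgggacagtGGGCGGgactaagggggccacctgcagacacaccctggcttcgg
Ube2uos: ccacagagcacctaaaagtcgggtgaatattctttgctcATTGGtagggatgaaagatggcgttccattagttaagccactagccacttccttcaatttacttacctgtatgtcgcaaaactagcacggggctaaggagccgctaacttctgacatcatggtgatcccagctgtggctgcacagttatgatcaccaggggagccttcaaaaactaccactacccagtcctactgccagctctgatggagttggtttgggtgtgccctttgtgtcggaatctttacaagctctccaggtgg
Msh3: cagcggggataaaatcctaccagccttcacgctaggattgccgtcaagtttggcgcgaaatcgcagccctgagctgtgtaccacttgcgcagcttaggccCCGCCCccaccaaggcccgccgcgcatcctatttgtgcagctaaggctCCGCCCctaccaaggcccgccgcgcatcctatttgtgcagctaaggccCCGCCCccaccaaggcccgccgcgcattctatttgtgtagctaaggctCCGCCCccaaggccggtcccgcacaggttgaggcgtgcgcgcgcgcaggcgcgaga
Stpg2: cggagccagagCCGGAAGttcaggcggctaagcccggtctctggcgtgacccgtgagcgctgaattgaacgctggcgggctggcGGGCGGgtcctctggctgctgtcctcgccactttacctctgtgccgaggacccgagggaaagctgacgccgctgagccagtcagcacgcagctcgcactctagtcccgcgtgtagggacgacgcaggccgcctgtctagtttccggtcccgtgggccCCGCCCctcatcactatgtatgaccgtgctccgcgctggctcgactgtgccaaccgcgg
5430440P10Rik: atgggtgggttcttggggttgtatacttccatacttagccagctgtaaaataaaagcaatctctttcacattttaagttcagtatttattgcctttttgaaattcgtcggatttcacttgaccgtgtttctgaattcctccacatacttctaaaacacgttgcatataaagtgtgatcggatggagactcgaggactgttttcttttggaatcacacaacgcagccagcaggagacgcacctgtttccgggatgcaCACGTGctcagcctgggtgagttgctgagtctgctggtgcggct
The windows lie at chr2:71980965-71981264 (plus strand), chrX:50635272-50635571 (minus), chr4:100527840-100528139 (minus), chr13:92354954-92355253 (minus), chr3:139205643-139205942 (plus) and chr14:105427309-105427608 (plus), in that order. The Rapgef4 window is 76.7% G and C, that of Firre 62.7%, Ube2uos 49%, Msh3 65%, Stpg2 67.3% and 5430440P10Rik 45%, against a median of 52.7% over 32851 promoters. The windows not printed, of Dennd4a, Nr3c2, 1700063H04Rik and 9530020I12Rik, had 48.7%, 65.7%, 47.7% and 54.7%, so the higher and the lower promoters overlapped in base composition. Sp1 boxes, found in 35.7% of all promoter windows, matched 5 times in Rapgef4, where 3 of the matches overlap one another, and 4 times in Msh3, each 48 bases after the one before. Firre held 1 such match and Stpg2 held 2. The Ube2uos window held a CCAAT box, as did 37.4% of all windows, and no Sp1 box. An ETS match stood in Stpg2 (8.86% of all windows) and an E box in Firre and in 5430440P10Rik (7.15%). The cAMP response element, AP-1, octamer and Esrrb letters, in 1.79%, 7.81%, 1.74% and 1.56% of all windows, were not in these 6. The sequence under the called Rapgef4 peak is not shown.

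The Ube2uos promoter (chr4:100527243-100528908), printed above, had 5.98 and 7.57 CPM early and 11.5, 12.6 and 13.4 CPM late. The late libraries were all above the early ones, and the difference was 0.86 ± 0.17 (edgeR adjusted p 0.0899), against 0.25 in the wild type control, 0.23 in the KO line with the transgene and 0.15 in the KO control. The Msh3 promoter (chr13:92354346-92355579) had 49.9 and 49.6 CPM early and 59.2, 72.0 and 87.5 CPM late. Its difference was 0.53 ± 0.14 (edgeR adjusted p 0.896), and the other lines had 0.30, 0.28 and 0.34 in the same order. Mpp5, Stpg2, Dennd4a and Nr3c2 had differences of 0.55, 0.59, 0.52 and 0.53. In all 6 of these promoters the library of 150 min, which has the raised promoter share, was the highest. Without it, Ube2uos was at 0.82 and Stpg2 at 0.55, while Mpp5, Msh3, Dennd4a and Nr3c2 were at 0.35, 0.38, 0.35 and 0.33. Fitted with the promoter share as covariate, the same 6 in that order had 0.81, 0.48, 0.22, 0.25, 0.22 and 0.20.

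Among peaks outside promoters, the smallest p late above early after Rapgef4 belonged to an intergenic peak nearest to Gm6207 on chromosome X (0.69 ± 0.15), to introns of Grip1, a scaffold of glutamate receptors (1.04 ± 0.25), Gm32633 (1.81 ± 0.46) and Wwc1, the Hippo pathway protein KIBRA (0.69 ± 0.18), and to a peak near Gm15516 (1.02 ± 0.27). The Gm6207 peak (chrX:135086550-135087843) had 20.2 and 17.5 CPM early and 25.2, 31.8 and 36.8 CPM late, with an edgeR adjusted p of 0.649. At Gm32633 the levels were low, 0.797 and 0.522 CPM early and 2.18, 2.00 and 2.97 CPM late. Grip1 and Gm32633 had differences between -0.23 and 0.32 in the other 3 lines, whereas Gm15516 had 0.92 in the KO line with the transgene.

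Among the peaks lower late, a Taf1a intron (chr1:183394961-183395909) had 4.38 and 3.66 CPM early and 1.26, 1.60 and 1.16 CPM late. Taf1a encodes a subunit of the selectivity factor of RNA polymerase I. All its late libraries were below both early ones, with a difference of -1.60 ± 0.35 (edgeR adjusted p 0.511). An intron of Nanog, the pluripotency homeobox factor (chr6:122709528-122709987, intron 2 of 4), had 2.92 and 4.96 CPM early and 1.99, 1.06 and 1.81 CPM late, a difference of -1.20 ± 0.30 (edgeR adjusted p 0.896). The peak at the Nanog start itself (chr6:122706954-122709085) had 27.4 and 23.5 CPM early and 25.6, 21.7 and 29.1 CPM late, with overlapping windows and a difference of 0.00 ± 0.14. Introns of Macrod2, an ADP-ribose hydrolase, and Lcor, a nuclear receptor corepressor, had differences of -1.34 ± 0.32 and -0.81 ± 0.20. The lower promoter peaks ran from -1.20 at Dnah8, an axonemal dynein heavy chain, to -0.54 at 1700063H04Rik. Among them, 5430440P10Rik, whose window is printed above, had 10.9 and 10.2 CPM early and 7.21, 5.72 and 7.50 CPM late.

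These 24 peaks were chosen by their p in this line, so their size here is no support; the other lines are separate libraries. Of the 12 higher peaks, 10 were positive in the wild type control, 9 in the KO line with the transgene and 11 in the KO control. Of the 12 lower peaks, 10, 6 and 5 were negative there. Over all tested peaks 53.7%, 55.3% and 53.7% had the same sign as in the wild type Firre line, and over the 500 peaks with the smallest p, of which 249 were higher late, 67.8%, 70.6% and 63.6%. Promoter peaks made up 27.6% of those 500 and 17.0% of all tested peaks, and the median promoter difference was positive in all 4 lines. The shares were not matched for this. The library of 150 min was the highest of the 5 in all 12 higher peaks, whereas the lowest value of the 12 lower peaks fell on the libraries of 90, 120 and 150 min 4 times each. Without the library of 150 min, Rapgef4 was still the 1 peak called.

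**Figure D3:**
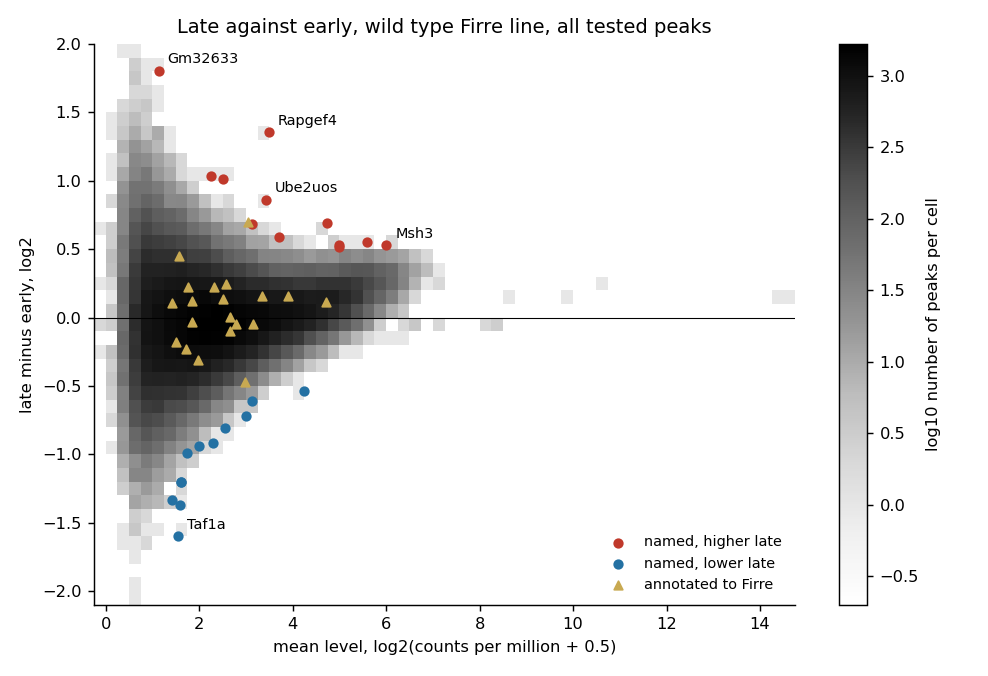
Late minus early log2 difference in the wild type Firre line (vertical axis) against mean level, log2(CPM + 0.5) (horizontal axis), as the log10 number of peaks per cell of the grid (grey), with the 24 named peaks and the peaks annotated to Firre as points. Rapgef4 stands off the grey cloud at 1.35, and the Firre peaks lie between -0.47 and 0.70.

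**Figure D4:**
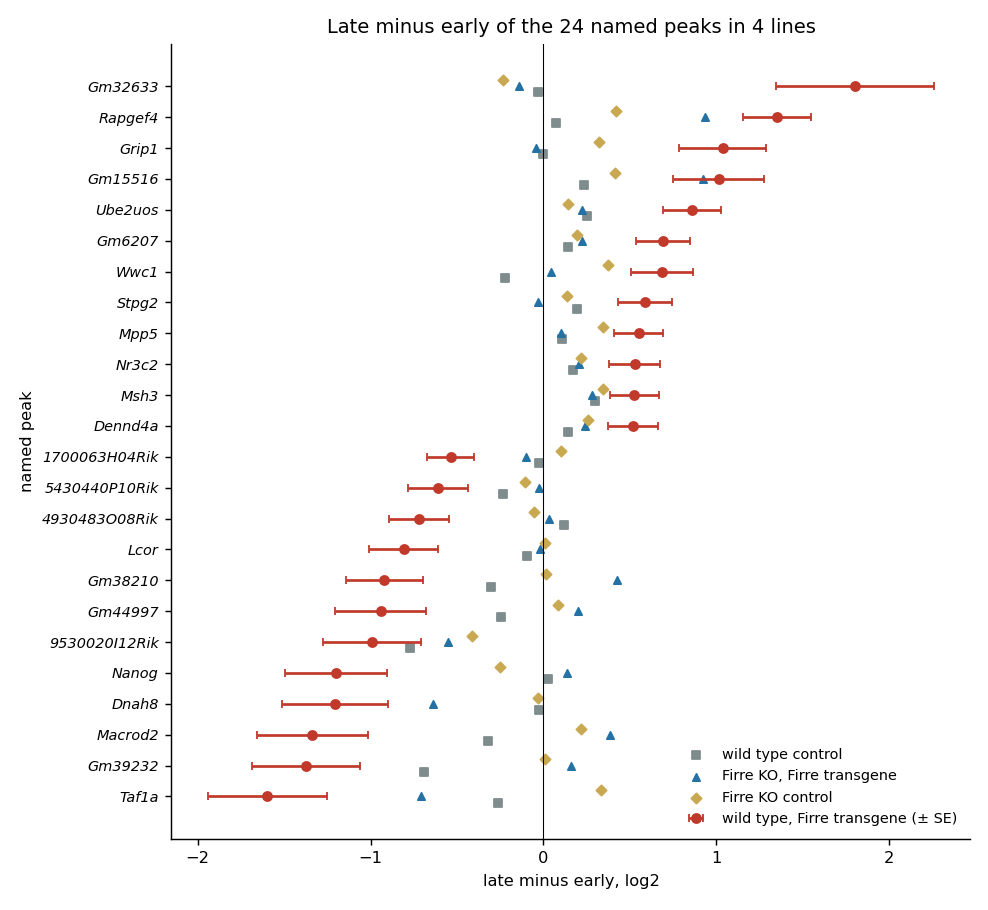
Late minus early log2 difference (horizontal axis) of the 24 named peaks (vertical axis) in the 4 lines, with the standard error for the wild type Firre line that chose them. The KO line with the transgene comes near the wild type Firre line at Rapgef4 (0.94 against 1.35) and Gm15516 (0.92 against 1.02).

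The late minus early difference of the wild type Firre line was next set against that of the wild type control, which received the drug without the transgene, and against that of the KO line with the transgene. With edgeR, 0 peaks differed in either comparison (0%), and 4556 (3.52%) and 4843 (3.74%) had an unadjusted p under 0.05. The smallest adjusted p of edgeR was 1 in both, and DESeq2 and limma-voom also called 0; at an unadjusted p under 0.05 DESeq2 had 0.825% and 0.9% of the peaks. The median standard errors were 0.361 and 0.362. Among the peaks outside promoters that were lower than in the wild type control, the smallest p belonged to an intron of Nmur1, a neuromedin U receptor (chr1:86404737-86405658), at -1.55, with 4.91 and 4.70 CPM early and 2.91, 2.93 and 1.94 CPM late, and introns of Kif5c, a kinesin heavy chain, and Cdk19, a Mediator kinase, at -1.29 and -1.65. In those 3 peaks the wild type control had differences of 0.70, 0.52 and 0.75, opposite in sign to the wild type Firre line. The peaks named in this paragraph were chosen by their p for the difference between lines. That choice favours opposite signs, so neither the signs nor the sizes are support. Higher were peaks near Gm12210 (2.21), whose p was smaller than that of Nmur1, and Gm30341 (1.49), an intron of Fsd1l (1.27) and the promoters of Gm20751 (1.05) and Miga1 (0.68), a mitochondrial fusion factor. In that order, the wild type control itself had differences of -1.29, -0.76, -0.82, -0.61 and -0.36. The wild type Firre line had 0.91, 0.73, 0.45, 0.44 and 0.32. Against the KO line with the transgene, another Nmur1 intron (chr1:86395862-86396273) was at -2.49 and an intron of Ppp6r3, a phosphatase regulatory subunit, at -2.21, while an intron of Spin1, a histone methylation reader, was at 1.93 and the Lhfpl2 promoter at 1.04. In that order, the KO line itself had 1.30, 1.14, -0.78 and -0.74, and the wild type Firre line -1.19, -1.07, 1.155 and 0.29.

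Gene lists were read at promoter peaks, within 1000 bp of a start site or in the promoter annotation, and 0 of 260 list peaks were called. Of these, 18 (6.92%) had an unadjusted p under 0.05 and were higher, against 7.26% of all 22024 promoter peaks, and 4 (1.54%) were lower, against 1.56%. The median difference over the list peaks was 0.11 and over all promoter peaks 0.07; without the library of 150 min the latter was 0.04. Of all promoter peaks 64.2% had a positive difference, against which the counts of positive list peaks below are to be read. The share of positive peaks also differed with level. All tested peaks were split by mean CPM into 5 classes of equal size. The lowest class had 45.4% positive peaks and a median of -0.05, the highest 70.2% and 0.08. The list peaks were not matched to other peaks by level, so a strong list can stand above 64.2% for this reason alone. The 2-cell-like list had 0 measured peaks.

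The core factors of the naive state were described whatever their change. The promoter of Pou5f1, which encodes OCT4, had 24.6 and 19.9 CPM early and 20.8, 19.8 and 25.7 CPM late, with overlapping windows and a difference of -0.02 ± 0.14. Sox2 was at 0.11 ± 0.13, Klf4 at 0.20 ± 0.14, Esrrb at 0.18 ± 0.14 and Zfp42, the REX1 gene, at 0.25 ± 0.14, of which Sox2 and Klf4 were below 0 with loess offsets and Klf4 and Esrrb with the promoter share as covariate. Of 21 naive pluripotency peaks 17 were positive, with a median of 0.11 that was 0.04 without the library of 150 min and -0.06 with loess offsets. Klf5, 1 of its members, had 40.1 and 34.9 CPM early and 43.9, 44.4 and 53.4 CPM late (0.32 ± 0.14, edgeR adjusted p 0.905). The formative and primed list had a median of 0.08 (0.04 without that library and 0.16 without that of 0 min), and its lowest members included Otx2, at -0.37 ± 0.15.

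Among pathways that the medium holds in place, targets of LIF and STAT3 had 16 of 21 positive peaks and a median of 0.12, FGF and ERK feedback genes 12 of 15 and 0.09, and Wnt targets 4 of 8 and 0.04; with loess offsets the LIF and ERK medians were -0.0058 and -0.043. Differences in the LIF list ran from -0.67 to 0.54. The LIF target Pim3, a survival kinase, had 35.5 and 33.8 CPM early and 39.2, 46.6 and 53.6 CPM late (0.40 ± 0.14, edgeR adjusted p 0.896). Immediate early genes had 15 of 19 positive peaks and a median of 0.17, with Junb at 0.31, Klf6 at 0.37 and the MAP kinase phosphatase gene Dusp1 at 0.27. Without the library of 150 min the medians of the LIF, ERK, Wnt and immediate early lists were 0.04, 0.04, 0.00 and 0.07.

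All 11 heat shock peaks were positive, with the highest median of the lists (0.20), and 3 had an unadjusted p under 0.05: Hsph1, Dnajb1 and Hspa5, chaperones or their partners. The summed CPM of all 11 heat shock peaks was 422.1 and 407.3 early and 439.2, 451.5 and 570.4 late. The late libraries were above the early ones, and that of 150 min was the highest. Without it the median was 0.12, and in the KO line with the transgene, the wild type control and the KO control it was 0.18, 0.07 and 0.08. The p53 targets (14 of 14 positive, median 0.14) and the genes of the integrated and mitochondrial stress response (9 of 11, 0.16) had 0 peaks at that p, and without the library of 150 min their medians were 0.06 and 0.11. The mitochondrial ribosome list, read because doxycycline acts on mitochondrial translation, had 10 of 13 positive peaks. Its median was 0.05, or 0.00 without the library of 150 min. Differences in this list ran from -0.37 to 0.38, with Mrps12 at 0.38 and Mrpl45 at 0.34.

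**Figure D5:**
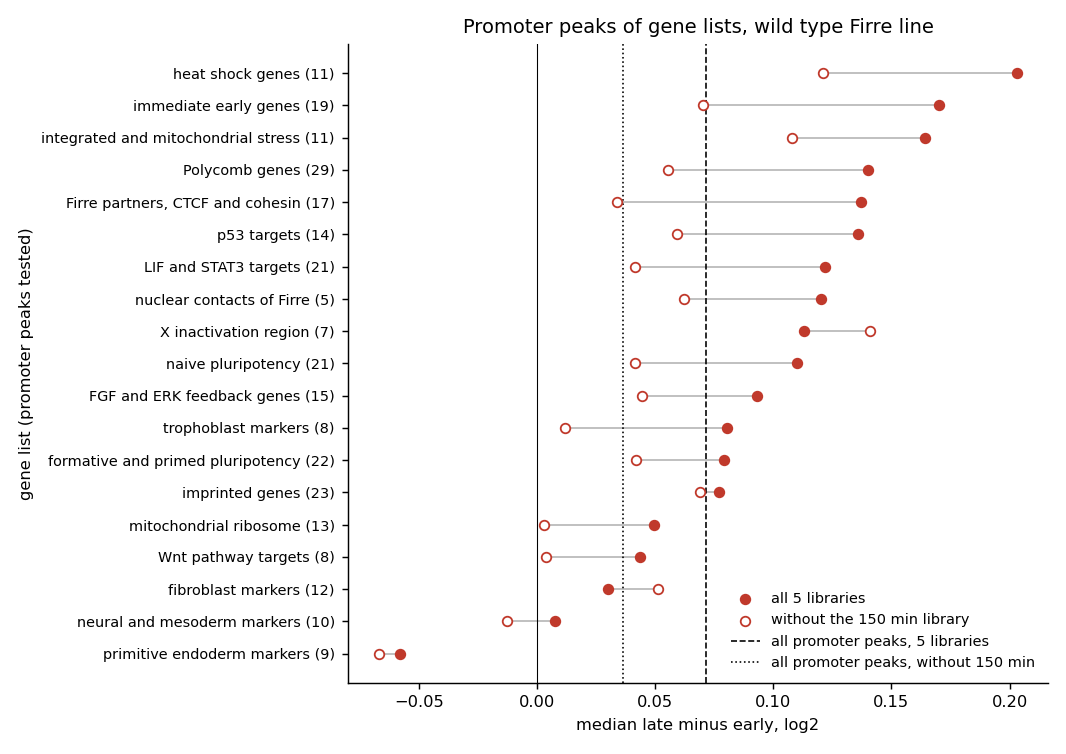
Median late minus early log2 difference (horizontal axis) of the tested promoter peaks of 19 gene lists (vertical axis, number of peaks in brackets) with all 5 libraries (filled) and without the library of 150 min (open), beside the medians of all promoter peaks. Heat shock genes have the highest median, 0.20, and most medians are lower without that library.

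Partners of Firre, CTCF and cohesin genes had 15 of 17 positive peaks, a median of 0.14 that was 0.03 without the library of 150 min, and 0 at an unadjusted p under 0.05. The promoter of Ctcf, the boundary factor, shared with Gm5914, had 49.8 and 49.0 CPM early and 47.8, 51.9 and 64.9 CPM late (0.13 ± 0.13), and that of the cohesin subunit Rad21 33.60 and 33.56 CPM early and 33.61, 33.79 and 41.87 CPM late (0.10 ± 0.13). The Ctcf windows overlapped, the Rad21 values were nearly the same in all libraries but that of 150 min, and both differences were below 0 with loess offsets. For genes in nuclear contact with Firre, only 2 of the 5 list genes were measured, with 5 peaks, of which 3 were positive. Their median was 0.12, or -0.09 without the library of 120 min and 0.06 without that of 150 min. The differences ran from -0.24 to 0.28, and Eef1a1, a translation elongation factor, was at 0.28 ± 0.13. Polycomb genes had 21 of 29 positive peaks and a median of 0.14, or 0.06 without the library of 150 min. Ezh2, the histone H3 lysine methyltransferase of PRC2, had 44.4 and 43.8 CPM early and 53.8, 57.9 and 65.6 CPM late (0.41 ± 0.14, edgeR adjusted p 0.896), while its partner Aebp2 had 7.17 and 6.66 CPM early and 4.70, 5.06 and 6.46 CPM late (-0.39 ± 0.20, edgeR adjusted p 0.92).

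The X inactivation region had 5 of 7 positive peaks and a median of 0.11. Its member Tsix, the antisense RNA of Xist, had 8.90 and 7.44 CPM early and 9.46, 10.6 and 12.7 CPM late (0.38 ± 0.17, edgeR adjusted p 0.911). Imprinted genes had 15 of 23 positive peaks and a median of 0.08, which was 0.01 without the library of 0 min. Markers of other cell types had medians of -0.06 for primitive endoderm, 0.08 for trophoblast, 0.01 for neural and mesoderm genes and 0.03 for fibroblasts. Without the library of 30 min the primitive endoderm median was 0.08 and the neural and mesoderm one -0.01; without that of 150 min the trophoblast median was 0.01, the neural and mesoderm one -0.01 and the fibroblast one 0.05.

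Promoter peaks as a class had a median difference of 0.07, and the 107491 other peaks one of -0.02. The promoter median was 0.04 in the wild type control, 0.06 in the KO line with the transgene and 0.04 in the KO control. On chromosome X, where Firre lies, the median over 2146 peaks was 0.07, against -0.02 to 0.01 on the autosomes. The chromosome X median was 0.05, 0.08 and 0.03 in the other lines in the same order. Against the mean of the early libraries, the X peaks of this line stood at 0.06 at 90 min, -0.02 at 120 min and 0.14 at 150 min, and without the library of 150 min the X median was 0.03. These medians are descriptions of peaks within the libraries and were not tested.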

How the data were processed

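The assay was Omni-ATAC, per the labels' protocols. The authors deposited whole-number read counts in consensus peaks, not normalized, and a peak annotation in which they give positions and other values such as the distance to the nearest start site. MACS2 2.2.7.1, featureCounts and the mm10 build are listed in the submitters' processing notes. No source used here names the aligner, duplicate removal or transposase shift. Counts were scaled by TMM and tested with edgeR 4.0.16 (glmQLFit, robust; R 4.3.3), with 1 coefficient per line and window over all 23 libraries (12 residual degrees of freedom), filterByExpr with a minimum of 10 counts, and Benjamini-Hochberg adjustment over 129515 peaks. Calls required an adjusted p of at most 0.05. CPM values use TMM library sizes, and ± on a log2 difference is its SE. Alternatives used DESeq2 1.42.0, limma-voom 3.58.1, other scalings, filters, time models and left-out libraries. The fit was tested on simulated data. Named per direction were the 6 promoter and 6 other peaks with the smallest p (3 and 3 for the differences between lines), with called peaks first, skipping a second peak of a gene; fixed promoters and 3 intronic peaks were added. Hnrnpu had no peak to describe. The members, lists and named loci were chosen with earlier results of these data known. Promoter sequences are from RefSeq.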

Additional observations from a re-analysis of the deposited data

How the results depend on the processing

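The number of peaks called late against early was 1 with limma-voom, total counts, no filter, a stricter filter, the promoter share as a covariate, the 90 min library thinned to the others' depth, and, chosen after seeing the data, without the KO control libraries of 30 and 90 min. It was 0 with DESeq2, 4 with loess offsets, 3 with only the lines compared, 6 with a linear slope per hour and 0 for 0 min against later times (also chosen after seeing the data), and 0 to 2 with each library left out (0 without 0 min, 2 without 90 min). Of the named peaks, 0, 3, 3, 4 and 0 were called in the same order of settings, and 0 to 2 with each library left out. The causes were not tested. The peaks gained included the Ube2uos promoter (loess offsets, lines compared, slope), the Gm6207 peak (loess offsets, slope, without 90 min), the Taf1a intron (lines compared) and the Mpp5 promoter (slope). Both differences between lines had 0 calls under every alternative run.

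Differences near 0 changed sign. Exon 18 of Firre was -0.44 without 0 min and -0.063 without 90 min, within a range of -0.44 to 1.05 over the libraries left out. Pou5f1 was 0.14, 0.039 and 0.037 without 0, 90 and 120 min, and 0.016 with the slope. The Nanog promoter was -0.10, -0.00026 and -0.076 without 30, 90 and 150 min, -0.0031 with limma-voom, -0.050 with total counts, -0.11 with loess offsets, -0.018 with the stricter filter, -0.12 with the promoter share and -0.13 for 0 min against later times. With loess offsets Sox2 was -0.087, Klf4 -0.063, Ctcf -0.075 and Rad21 -0.045; with the promoter share Klf4 was -0.035, Esrrb -0.0084, Ctcf -0.10 and Rad21 -0.052. The labels carry no replicate numbers, but the lines share time points; with the time point as a block, both differences between lines had 0 calls. Depth and 2 against 3 libraries limit the test to changes well above the median SE of 0.247.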
